A study of Arabidopsis thaliana with 9 samples.

Results

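The regions described here are stretches of Arabidopsis thaliana chromatin that were recovered with GRF3-GFP in exactly 2 of 3 immunoprecipitated libraries, lay inside protein-coding genes, and had no matching GRF1-GFP region. Overlapping peaks of the 3 GRF3-GFP libraries were merged where they shared at least 1 bp. A merged region was taken when exactly 2 libraries had a peak in it, when it touched no GRF1-GFP region found in 2 or 3 GRF1-GFP libraries, and when its summit, the point of highest signal, fell inside a protein-coding gene and outside every annotated pseudogene. This gave 481 regions of the 7208 merged GRF3-GFP regions, or 21.8% of the 2203 regions found in 2 or 3 libraries. The regions were selected on measured values, namely which libraries had a peak and where the peaks and summits lay, so their number, library pairs, enrichments and widths are given as a description with no test. The rule asked only that a summit lie inside a gene, not how far from its ends or in how long a gene, and asked it alike of regions in 1, 2 or 3 libraries.

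The GRF family takes its name, growth-regulating factor, from plant DNA-binding proteins that promote cell proliferation in young leaves and other growing organs. They act together with GRF-interacting factors (GIFs), which are coactivators, and many GRF transcripts are cleaved under the direction of the microRNA miR396. Chromatin immunoprecipitation followed by sequencing (ChIP-seq) recovers the DNA held by a tagged protein, and a peak is a stretch where a peak caller counted more reads than its background.

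Whole plants of the Ws strain, 2 weeks old and grown on MS medium, carried 35S:GFP, 35S:GRF1-GFP or 35S:GRF3-GFP, and each of the 3 genotypes had 3 samples immunoprecipitated with an antibody to GFP. The 35S promoter, which is active in most plant cells, drove every transgene, so the fusion proteins need not have been confined to the cells or levels of the native factors. The 3 GRF3-GFP lists held 2258, 2301 and 5944 peaks in replicates 1, 2 and 3, and the 3 GRF1-GFP lists held 1410, 1122 and 1878. Peaks of the 35S:GFP samples were not analysed here. The lists carry no read counts, so the depth of each library is unknown. The labels do not say whether replicates were separate cultures, so p-values measure only the spread between these libraries.

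The regions were weakly enriched in both of their libraries. The authors' fold enrichment of a peak, a linear ratio over the caller's background, had a median of 2.27 in the 294 regions with a peak in replicate 1, with a range of 1.24 to 3.86. In replicate 2, 243 regions had a peak, with a median fold of 2.21 and a range of 1.16 to 3.51. In replicate 3, 425 regions had a peak, with a median fold of 2.41 and a range of 1.62 to 8.16. Each median lay a little below that of the whole list, which was 2.41, 2.44 and 2.56 in replicates 1, 2 and 3. The mean fold over the 2 libraries lay between 2 and 3 in 397 of the 481 regions (82.5%), under 2 in 58 and over 3 in 26, and passed 4 in 3 regions. Its median was 2.33 and its quartiles were 2.12 and 2.55. The 162 GRF3-only gene-body regions found in all 3 libraries had a median mean fold of 3.06, with 72 of them over 4, and the 2870 found in 1 library had a median of 2.34. The 2-library regions were thus close in fold to the 1-library regions, while the upper quartile of the 3-library regions stood at 7.97. The median width of the 481 regions was 413 bp, with a range of 215 bp at AT1G56530 to 2726 bp at ASY2.

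Peak significance was low as well. The authors' −log10 q value, which grows as the false discovery rate of a peak falls, had a median of 3.57, 3.45 and 3.99 in replicates 1, 2 and 3, beside 5.49, 6.24 and 4.72 over the whole lists. Both peaks of a region reached a −log10 q of 5 in 60 regions (12.5%), and at least 1 of them did in 204.

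Replicate 3, which had the longest list, took part in most of the regions. Replicates 1 and 3 shared 238 regions (49.5%), replicates 2 and 3 shared 187 (38.9%), and replicates 1 and 2 shared 56 (11.6%). The balance was different in the other 762 GRF3-GFP regions found in exactly 2 libraries, of which 200 (26.2%) came from replicates 1 and 3, 494 (64.8%) from replicates 2 and 3, and 68 (8.92%) from replicates 1 and 2. Among those, the 463 regions with a summit in a pseudogene span came from replicates 2 and 3 in 73.2% of cases. The 126 regions that overlapped a GRF1-GFP region split like the gene-body regions, with 48.4% from replicates 1 and 3. List length moved with these shares. With each GRF3-GFP list cut to its 2258 peaks of highest −log10 q, the rule found 205 regions, and replicates 2 and 3 gave 26.8% of them. With peaks under a −log10 q of 5 removed, it found 78 regions, 50% of them from replicates 2 and 3. Without replicate 3 it found 214, which by construction include regions otherwise seen in all 3 libraries.

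**Figure D1:**
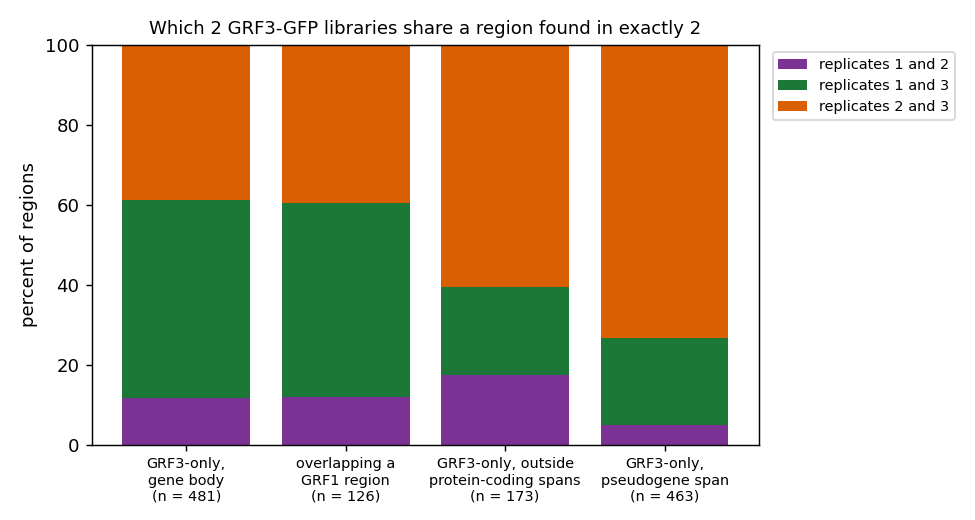
Bars show, for 4 classes of GRF3-GFP regions found in exactly 2 libraries, the percent of regions (vertical axis) that came from each pair of replicates. Replicates 1 and 3 gave 49.5% of the 481 GRF3-only gene-body regions and 21.8% of the 463 regions in pseudogene spans.

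The rule required the peaks of the 2 libraries to overlap, which by itself keeps their summits near each other. Median peak widths ran from 258.5 to 385 bp over the pairs. The distances between summits are therefore given as a description. The median distance between the summits was 32.5 bp for replicates 1 and 2, 63 bp for replicates 1 and 3 and 66 bp for replicates 2 and 3. The summits lay within 100 bp of each other in 44 of 56, 154 of 238 and 115 of 187 regions. Across regions, Pearson's r between the log2 folds of the 2 libraries was 0.73 for replicates 1 and 2, 0.30 for replicates 1 and 3 and 0.35 for replicates 2 and 3. These are correlations across regions of the same libraries, given as a description, and regions are not independent replicates. The fold in replicate 3 was the higher one in 57.1% of its regions with replicate 1 and in 70.1% of its regions with replicate 2.

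By the rule, the library without a peak had none that overlapped the region. The distance to its nearest peak is given as a description, with no value for other regions beside it. The median gap from a region to the nearest peak of that library was 9823 bp when replicate 3 lacked the peak, 25162.5 bp when replicate 2 did and 16858 bp when replicate 1 did. A peak of that library lay within 1 kb of 5, 15 and 15 regions respectively.

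**Figure D2:**
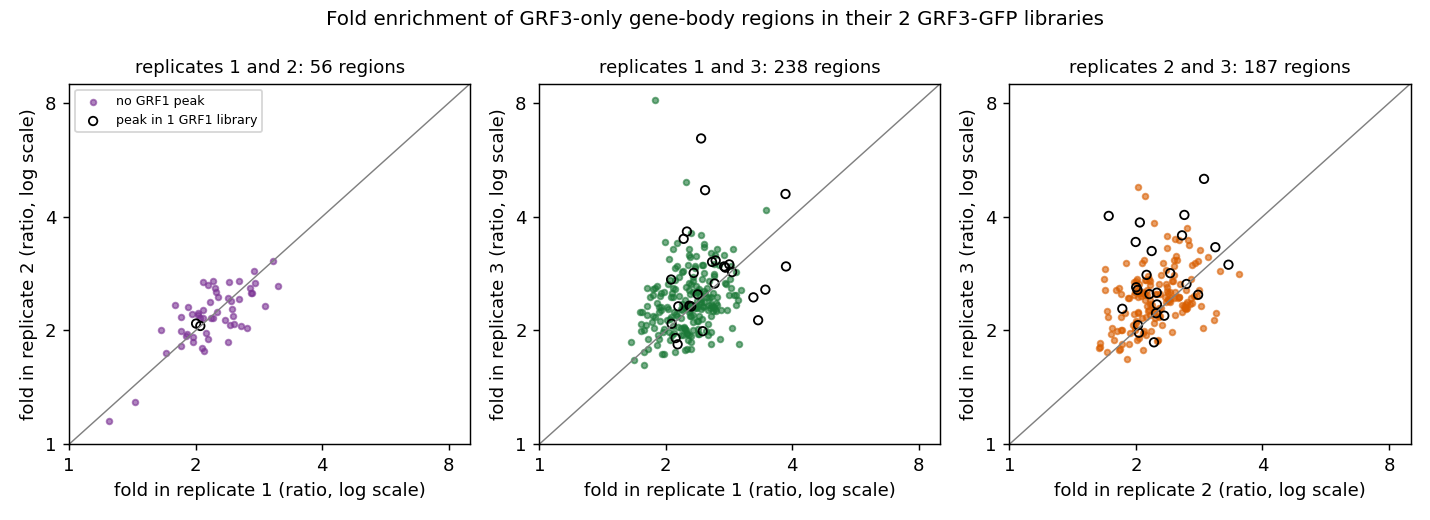
Each point is a GRF3-only gene-body region, with the authors' fold enrichment (ratio, log scale) in its lower-numbered replicate on the horizontal axis and in its higher-numbered replicate on the vertical axis. Open circles mark regions with a peak in 1 GRF1-GFP library, and the grey line marks equal folds. The cloud sits near 2 to 3 on both axes, and the highest points stand mainly above the line in replicate 3, up to 8.16.

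Among the 12 regions of highest mean fold, replicate 3 gave the higher value in 11. AT5G55430 (chromosome 5, 22464804 to 22465119) had folds of 1.88 in replicate 1 and 8.16 in replicate 3, the widest spread of these 12. Its −log10 q was 68.2 in replicate 3 but only 1.59 in replicate 1, where the lowest value in the list was 1.31. MYB12, a transcription factor that activates flavonol synthesis, had folds of 2.43 in replicate 1 and 6.44 in replicate 3 over chromosome 2, 19478388 to 19479242. AT3G49270 (chromosome 3, 18267441 to 18267788) had 3.85 in replicate 1 and 4.59 in replicate 3. The third of these was high in both of its libraries, while the first and the second were high in replicate 3 alone.

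AT3G22800 (chromosome 3, 8063106 to 8063503) had folds of 2.90 in replicate 2 and 5.04 in replicate 3. AT4G37210 had 3.47 in replicate 1 and 4.16 in replicate 3. BXL2, a beta-xylosidase that trims cell-wall xylan, had 2.48 in replicate 1 and 4.70 in replicate 3 over chromosome 1, 565404 to 565694. Its relative BXL1 also held a region, which ranked below the first 12 and is named after its values were seen, with 2.08 in replicate 1 and 3.29 in replicate 3. GRP23, the glycine-rich protein at AT2G32690, had 2.24 in replicate 1 and 4.93 in replicate 3. AT4G18670 had 2.02 in replicate 2 and 4.80 in replicate 3. KPL (KOKOPELLI), a gene needed for sperm function in fertilization, was the exception in direction, with 3.86 in replicate 1 and 2.95 in replicate 3. AT5G25490 had 2.61 in replicate 2 and 4.04 in replicate 3. AT3G24480 had 2.10 in replicate 2 and 4.53 in replicate 3. AT1G41820 had 3.09 in replicate 2 and 3.32 in replicate 3, the closest pair of values among the 12. Of the 12, MYB12, AT3G49270, AT3G22800, BXL2, KPL, AT5G25490 and AT1G41820 also touched a peak of 1 GRF1-GFP library. Of all 481 regions, 10.8% did. The GRF1-GFP fold was 3.26 in GRF1-GFP replicate 2 at BXL2 and 3.17 in GRF1-GFP replicate 3 at AT3G22800.

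The 56 regions of replicates 1 and 2 had no value as high. UGT76B1, a glycosyltransferase that acts on small defence-related acids, led them with 3.06 in replicate 1 and 3.06 in replicate 2. AT1G56530 had 3.14 and 2.62, and SQE2, a squalene epoxidase of sterol synthesis, had 2.76 and 2.88. The values of these pairs lay close together.

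High significance without high fold occurred mainly in this pair of libraries. A mean −log10 q of 10 or more was reached by 10 of its 56 regions (17.9%), by 8 of the 238 of replicates 1 and 3 (3.36%) and by 9 of the 187 of replicates 2 and 3 (4.81%). In replicates 1 and 2 those 10 regions were narrow, 215 to 328 bp with a median of 233 bp, and their folds in the 2 libraries stood in a ratio of 0.84 to 1.03. In the other pairs, the 17 regions at this level were higher in replicate 3 in every case, with a median ratio of 1.74 in each pair. The ratio ran from 1.19 to 4.34 with replicate 1 and from 1.00 to 2.37 with replicate 2. Narrow regions with close folds occurred there too. In replicates 2 and 3, AT2G27580 (227 bp) had folds of 2.39 and 2.40, and EDA34 (261 bp) had 2.39 and 2.51. AT2G28815 (chromosome 2, 12367089 to 12367319) had the highest −log10 q of the 481 regions, at 236 in replicate 1 and 235 in replicate 2, with folds of 2.43 and 2.39. FIP2 had −log10 q values of 87.8 and 75.4 with folds of 2.70 and 2.51. ADR1-L1, a helper immune receptor, had 29.0 and 28.0 with folds of 2.76 and 2.67. AT2G07732 had 102 and 51.2 at folds of only 1.43 and 1.30. AT2G07698 had the lowest folds of all, 1.24 and 1.16, but its −log10 q values were not high, at 4.99 and 1.82. These genes, chosen after their values were seen, include 2 with AT2G07 numbers, which belong to the stretch of chromosome 2 known to hold a copy of mitochondrial DNA. The caller's background for each peak and the share of reads with several matching places are not given in the sources used here, and their part in these values was not tested.

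**Figure D3:**
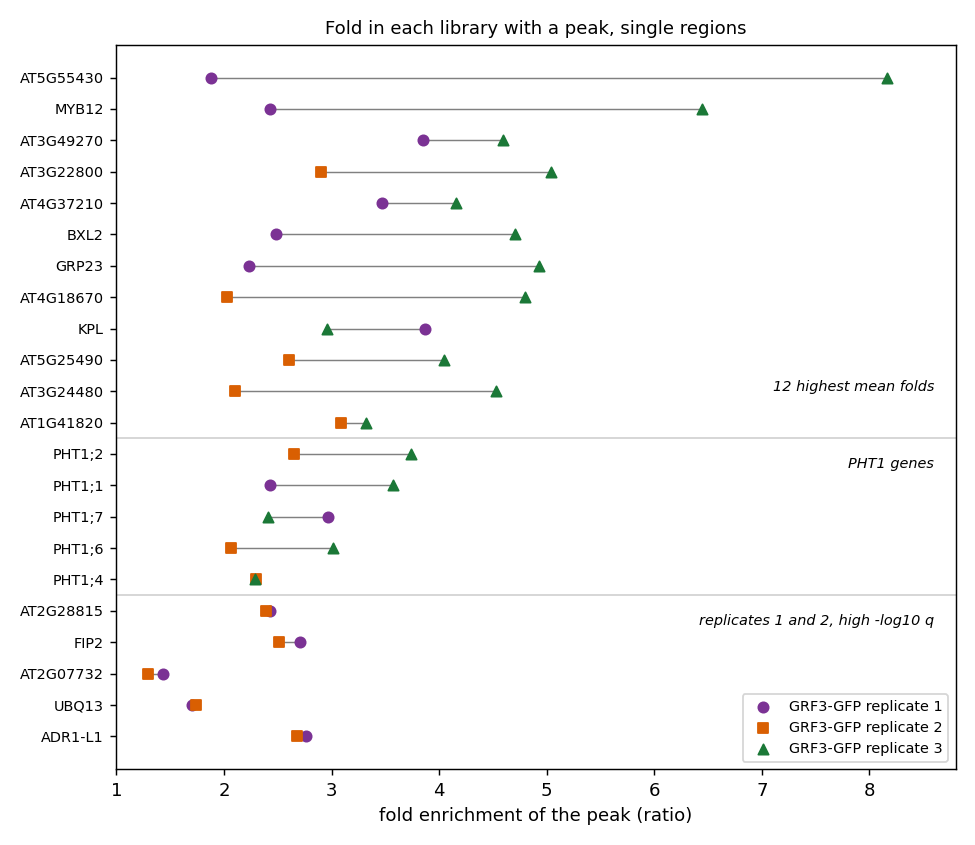
The horizontal axis gives the authors' fold enrichment (ratio) of single regions, named by gene on the vertical axis, with 1 symbol per GRF3-GFP replicate that had a peak. The upper block holds the 12 regions of highest mean fold, from 3.21 to 5.02, the middle block the 5 PHT1 genes, and the lower block 5 regions of replicates 1 and 2 with a high −log10 q, whose symbols nearly coincide.

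Summits lay away from the ends of genes. The gene table gives the outer limits of each gene and not its exons, introns or UTRs, so position is given along this span. Of the 481 summits, 468 fell in 1 protein-coding span and 13 in 2 overlapping spans, which makes 494 pairs of region and gene. The median distance from the summit to the nearer end was 29.3% of the span, or 566.75 bp. Only 4 of the 494 (0.81%) lay within 100 bp of an end, where an even spread along the same genes would put 10.4%. The GRF3-only gene-body regions found in 1 library were similar, with 55 of 2931 (1.88%) that close and a median distance of 28.7% of the span. For the regions in all 3 libraries, 31 of 168 (18.5%) lay that close, and their median distance was 16.9% of the span. The outer 25% on each side of the span would together hold 50% under an even spread. They held 40.8% of the 1-library summits, 63.1% of the 3-library summits and 195 of the 494 (39.5%). Without replicate 1, 2 or 3 of GRF3-GFP that share was 51.2%, 49.3% or 57.5%, since regions otherwise found in all 3 libraries then enter, so it lay on both sides of 50%.

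The position was also compared library by library, with each library's own summits. In replicate 1 the median distance from the nearer end was 29.4% for the 2-library regions and 16.1% for the 3-library regions. In replicate 2 these medians were 28.8% and 16.6%, and in replicate 3 they were 28.9% and 16.9%. The 2-library regions were farther from the ends in 3 of 3 libraries, by a mean of 12.5 percentage points ± 0.71 (SD, n = 3). A two-sided exact sign-flip permutation test over the 3 libraries gave p = 0.25, the smallest value that 3 libraries allow. The libraries share the 3-library regions, and each 2-library region enters 2 libraries, so the 3 differences are not independent. Against the GRF3-only gene-body regions found in 1 library, the mean difference was 0.811 percentage points (exact sign-flip p = 0.5, n = 3), and its sign was not the same in the 3 libraries.

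**Figure D4:**
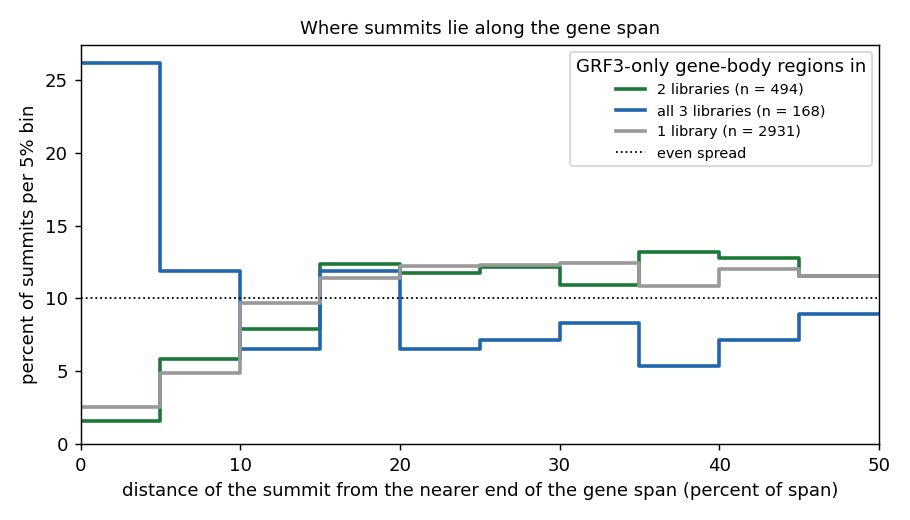
The horizontal axis is the distance of the summit from the nearer end of the gene span in percent of the span, and the vertical axis the percent of summits in each bin of 5%. Lines stand for GRF3-only gene-body regions in 2 libraries (n = 494 pairs of region and gene), in all 3 (n = 168) and in 1 (n = 2931). In the outermost bin the 2-library line stands at 1.62%, the 1-library line at 2.56% and the 3-library line at 26.2%.

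In replicates 1, 2 and 3 the median span of these genes was 2470, 2296.5 and 2388 bp, beside 2554.5 bp for genes with a 3-library region. The 2-library genes were shorter in 3 of 3 libraries, with a mean difference from the 3-library genes of −170 bp (SD 86.8, n = 3; two-sided exact sign-flip p = 0.25, the smallest possible). The 3-library genes are the same in each library and each 2-library region enters 2 libraries, so the 3 differences are not independent. Against genes with a region in 1 library the differences were 68, −47.5 and −167 bp in replicates 1, 2 and 3 (mean −48.8, exact sign-flip p = 0.75, n = 3), with no common sign. Over all protein-coding genes the median span was 2078 bp, but a longer gene has more room for a summit, so the rule itself favours long genes. A region was present in 1.33% of the genes with spans up to 1323 bp, the shortest 25% of genes, and in 2.28% of those with spans of 3031 bp or more, the longest 25%. Per Mb of span the order was the opposite, with 15.9 genes holding a region in the shortest 25% and 5.07 in the longest. The 5 chromosomes held 104, 73, 107, 88 and 109 regions in order, and the share of protein-coding genes with a region ran from 1.44% on chromosome 1 to 2.22% on chromosome 4.

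The 481 regions touched 481 different protein-coding genes, a coincidence of counts, since 13 summits fell in 2 genes and 13 genes held 2 regions. This was 1.75% of the 27444 protein-coding genes in the table. Genes with a symbol held a region more often (224 of 10374, 2.16%) than genes known by number only (257 of 17070, 1.51%). Gene lists could be drawn only from genes with a symbol, so both 1.75% and 2.16% stand as backgrounds. Over 26 lists of known genes, 111 of 3629 genes (3.06%) held a region, and 19 lists stood above 1.75%. The counts per list are small, from 0 to 17, and no list was tested. They also rest on replicate 3 and on weak peaks: 45 list genes held a region without replicate 3, 43 with GRF3-GFP lists of equal length and 13 with peaks of a −log10 q of at least 5.

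**Figure D5:**
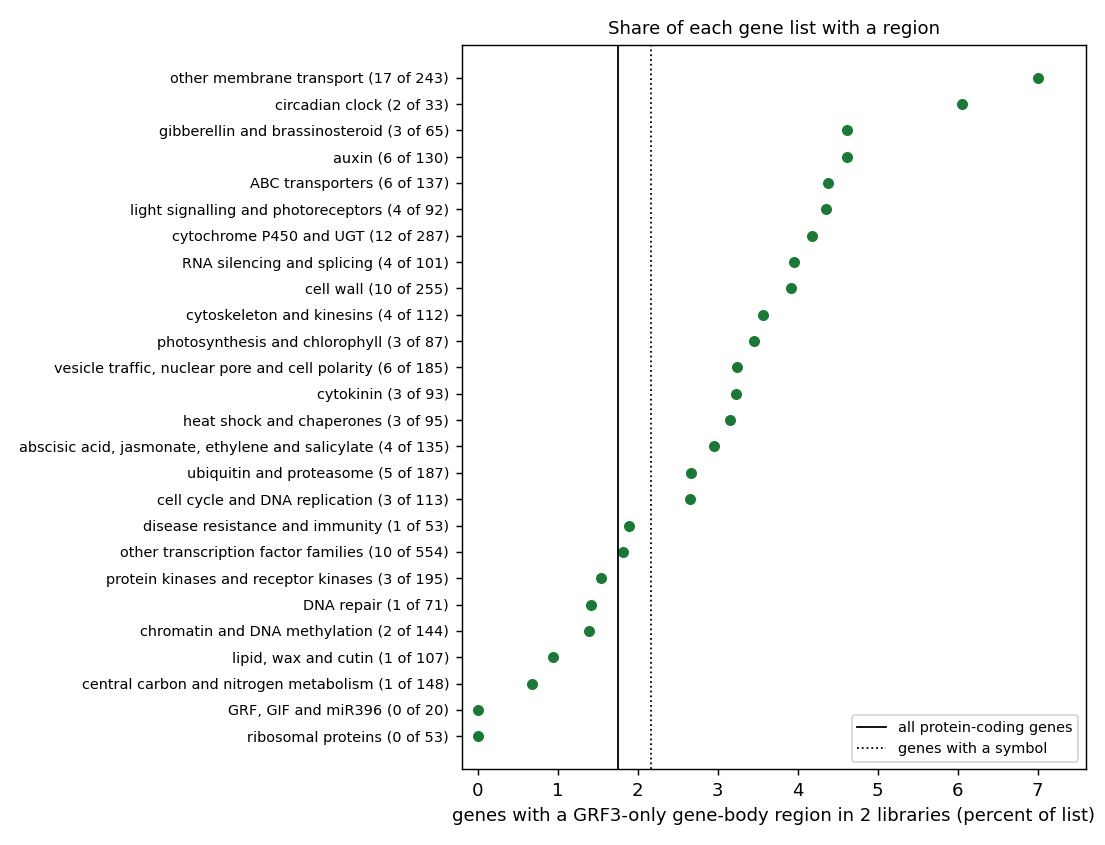
Each point gives the percent of the genes of a list (horizontal axis) that hold a GRF3-only gene-body region found in 2 libraries, with counts beside the list's name. The solid line marks all protein-coding genes (1.75%) and the dotted line genes with a symbol (2.16%). As processed here, membrane transport stands at 7% and 2 lists stand at 0.

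Growth-regulating factors and their partners held no region. The list matched 20 genes by symbol, 12 of them GRF or GIF genes and 8 of them 14-3-3 genes that share the GRF symbol, and 0 of the 20 had a region. With any 1 GRF3-GFP library left out, which takes in regions otherwise found in all 3, 1 of the 20 did. The microRNA genes themselves are not protein-coding and could not enter.

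Hormone genes were present at several steps of the auxin pathway, with 6 of 130 genes on the list (4.62%). YUC4, a flavin monooxygenase that makes auxin, had folds of 2.84 in replicate 2 and 3.26 in replicate 3. ABCB19, an auxin exporter, had 2.54 in replicate 1 and 2.33 in replicate 3, and its relative ABCB2 had 2.57 in replicate 2 and 2.24 in replicate 3. The other members of this list were TIR1, which encodes an auxin receptor, PIN3, which encodes an efflux carrier, and BIG, a large protein needed for auxin transport. Their mean folds lay between 2.11 and 2.29. NPH4 (ARF7), an auxin response factor that entered under the light list, had 1.83 in replicate 1 and 2.45 in replicate 3.

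For gibberellin and brassinosteroid, 3 of 65 genes (4.62%) held a region. BAS1, an enzyme that inactivates brassinosteroids, had folds of 3.45 in replicate 1 and 2.56 in replicate 3. RGL3, a DELLA repressor of gibberellin response, had 2.14 in replicate 2 and 2.26 in replicate 3. CPD, an enzyme of brassinosteroid synthesis, had 2.22 and 2.16 in the same libraries. BAS1 was the highest of the 3 and the only one with a fold above 3.

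Cytokinin genes numbered 3 of 93 (3.23%), namely the response regulators RR19 and RR13 and the cytokinin-degrading oxidase CKX6. RR19 had folds of 2.36 in replicate 2 and 2.88 in replicate 3, RR13 had 2.30 in replicate 1 and 2.19 in replicate 3, and CKX6 had 1.95 and 2.51 in those libraries. The stress-hormone list had 4 of 135 genes (2.96%). EDS5, a transporter needed for salicylic acid accumulation, had 2.71 in replicate 1 and 2.26 in replicate 3. MYC2, the main transcription factor of jasmonate signalling, had 2.02 in replicate 2 and 2.07 in replicate 3, and its summit also fell in an overlapping gene. LOX2, a lipoxygenase of jasmonate synthesis, had 1.85 and 2.18 in those libraries, and ERF4, a repressor in ethylene response, had 1.98 and 2.00. EDS5 stood above the median mean fold of all the regions, and the other 3 genes stood below the lower quartile.

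Light signalling contributed 4 of 92 genes (4.35%), of which 3 encode phytochrome-interacting factors, the transcription factors that restrain light responses in the dark and promote elongation. PIF4 had folds of 2.32 in replicate 2 and 3.02 in replicate 3. PIL5 (PIF1) had 2.14 in replicate 1 and 2.04 in replicate 3, and PIL6 (PIF5) had 2.00 in replicate 2 and 2.12 in replicate 3. The clock list had 2 of 33 genes (6.06%). TIC (TIME FOR COFFEE), a clock regulator, held 2 regions, with folds of 2.85 in replicate 1 and 2.74 in replicate 3 at the first and 1.76 and 2.24 at the second. CDF3, a cycling DOF factor, had 2.09 in replicate 1 and 2.26 in replicate 2.

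Transcription factor families had 10 of 554 genes with a region (1.81%), close to the background. After MYB12, HB-3 and WRKY31 had the highest mean folds. HB-3 is better known as WOX9 or STIMPY, a homeobox factor that keeps embryonic and shoot cells dividing, and it had folds of 2.77 in replicate 1 and 2.93 in replicate 3. WRKY31, of the WRKY family, had 2.46 in replicate 1 and 2.84 in replicate 3. TCP4, known to promote the end of proliferation in leaves, had 1.97 and 1.98 in these libraries. Of other leaf regulators, chosen here after their values were seen, AS2, which sets leaf polarity, had 2.42 in replicate 1 and 2.42 in replicate 3. BOP2, which patterns the leaf base, had 2.71 in replicate 2 and 2.36 in replicate 3. Of these leaf regulators, TCP4 was the lowest in both of its libraries.

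Chromatin genes numbered 2 of 144 (1.39%), under the background. BRM, the ATPase of a SWI/SNF remodelling complex, had folds of 2.64 in replicate 2 and 2.29 in replicate 3. SUVH2, a SET-domain protein of the RNA-directed DNA methylation pathway, had 2.45 in replicate 1 and 1.99 in replicate 3. In DNA repair, MSH3, a mismatch repair protein, was 1 of 71 genes (1.41%), with 1.97 in replicate 1 and 1.92 in replicate 2. The RNA list counted 4 of 101 genes (3.96%), but only HYL1, a partner of the microRNA-processing enzyme, works on RNA silencing or splicing. It had 2.67 in replicate 1 and 2.97 in replicate 3. SRC2 (2.06 and 2.73 in replicates 1 and 3), PRP2 (2.26 and 2.32 in the same) and PRP4 (1.99 and 2.03 in replicates 2 and 3) matched by symbol, and the table names them as a cold-regulated gene and proline-rich proteins. SAP130a, a spliceosome-associated protein outside the list, held 2 regions, with 2.46 in replicate 1 and 3.39 in replicate 3 at the first and 2.03 in replicate 2 and 1.97 in replicate 3 at the second.

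Membrane transport had 17 of 243 genes with a region (7%) beside the background of 1.75%. Phosphate transporters of the PHT1 family, a family singled out after its values were seen, take up phosphate across the plasma membrane and made up 5 of the 17, of 9 in the table. PHT1;2 had folds of 2.65 in replicate 2 and 3.74 in replicate 3. PHT1;1 had 2.43 in replicate 1 and 3.57 in replicate 3, and PHT1;7 had 2.97 in replicate 1 and 2.41 in replicate 3. PHT1;6 had 2.07 in replicate 2 and 3.02 in replicate 3, and PHT1;4 had 2.30 and 2.29 in those libraries. PHT1;1, PHT1;2 and PHT1;6 are neighbours on chromosome 5 with closely similar sequences, so reads could have been shared between copies and these values are uncertain.

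Cation/H+ exchangers of the CHX family, also singled out after their values were seen, gave 4 more members of this list, CHX10, CHX16, CHX23 and CHX27, with mean folds from 2.05 to 2.48, and ATCHX5, which the list missed by its symbol, had 2.37 in replicate 2 and 3.31 in replicate 3. Nitrogen transport was represented by the nitrate transporters NRT1.9 and NRT2.2 and the ammonium transporter AMT1;3, with mean folds of 2.49, 2.21 and 2.40. NLP7, with 2.90 in replicate 1 and 2.48 in replicate 3, regulates nitrate response as a transcription factor and is not a transporter. ACA8 matched by symbol and is an alpha carbonic anhydrase in the table, with 2.05 in replicate 1 and 2.06 in replicate 2. The potassium antiporter KEA4, the aquaporin TIP1;3 and the glutamate receptor GLR2.3 completed the list. The count of 17 was 11 with a reciprocal overlap of 50% between peaks, 8 with lists of equal length and 2 with a −log10 q of at least 5. It was 11, 11 and 7 without replicates 1, 2 and 3 of GRF3-GFP.

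ABC transporters had 6 of 137 genes (4.38%), but 0 with GRF3-GFP lists of equal length, 0 when peaks under a −log10 q of 5 were dropped, and 2, 4 and 0 without replicates 1, 2 and 3. PEN3, a plasma membrane transporter of pathogen defence, had folds of 3.23 in replicate 1 and 2.45 in replicate 3, and it was also the 1 gene of 53 on the immunity list (1.89%). ABCF4 had 3.32 in replicate 1 and 2.13 in replicate 3, and ABCG19 had 2.56 and 2.45 in those libraries. ABCC1 and the 2 ABCB genes lay between 2.40 and 2.44 in mean fold. No ABC transporter had its regions in replicates 1 and 2, a pair that gave only 11.6% of all 481 regions.

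Cytochrome P450s and UGT glycosyltransferases had 12 of 287 genes (4.18%). After UGT76B1, the highest were CYP82C2, with folds of 2.61 in replicate 1 and 2.99 in replicate 3, and CYP78A10, with 2.09 in replicate 2 and 3.08 in replicate 3 at 1 of its 2 regions. The other region of CYP78A10 had 2.16 and 2.20 in these libraries. The phenylpropanoid enzymes C4H and 4CL2, named after their values were seen, had 3.03 in replicate 1 and 2.55 in replicate 3, and 2.20 in replicate 1 and 2.70 in replicate 2.

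Cell wall genes numbered 10 of 255 (3.92%). EXT6, an extensin, had folds of 2.18 in replicate 2 and 3.25 in replicate 3. COBL10, a COBRA-like protein that acts in pollen tubes, had 2.80 in replicate 2 and 2.47 in replicate 3. CSLD3, a cellulose synthase-like protein of root hairs, had 2.18 in replicate 1 and 2.86 in replicate 3. The others were the extensins EXT10 and EXT4, CSLD2, the pectin methylesterase PME1, the laccases LAC8 and LAC16 and the arabinogalactan protein AGP6, with mean folds from 1.92 to 2.35. Extensins share long repeats, so their values are uncertain too.

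Ubiquitin and proteasome genes numbered 5 of 187 (2.67%), and 3 of them were polyubiquitin genes built of near-identical repeats. UBQ10 had folds of 2.88 in replicate 1 and 2.85 in replicate 3, UBQ14 had 2.38 and 2.49 in those libraries, and UBQ13 had 1.70 in replicate 1 and 1.74 in replicate 2. RPT5A, a proteasome ATPase, had 2.27 in replicate 1 and 3.17 in replicate 3, and PUB39, a U-box protein, had 2.00 in replicate 2 and 3.43 in replicate 3. The polyubiquitin values are uncertain because reads could match several copies.

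The kinase list had 3 of 195 genes (1.54%), under the background. RAPTOR2, a partner of the TOR kinase and no kinase itself, had folds of 2.53 in replicate 2 and 3.47 in replicate 3. PERK7, a receptor kinase, had 2.71 and 2.99 in those libraries, and MAPKKK17 had 2.15 in replicate 1 and 2.64 in replicate 2. Vesicle traffic and polarity had 6 of 185 genes (3.24%), with 4 EXO70 exocyst subunits, a family picked out after its values were seen, among them. MOS1, which the list matched by symbol and which is a modifier of an immune receptor, had 2.93 in replicate 1 and 2.86 in replicate 3. GN (GNOM), which recycles auxin carriers to the membrane, had 2.69 in replicate 2 and 2.35 in replicate 3. EXO70E2 had 2.22 in replicate 1 and 2.59 in replicate 2.

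The cytoskeleton list had 4 of 112 genes (3.57%). The actin gene ACT2 had folds of 2.83 in replicate 1 and 2.49 in replicate 3, NEK6, a kinase acting on microtubules, had 2.38 in replicate 2 and 2.42 in replicate 3, and NEK2 had 2.57 in replicate 1 and 2.19 in replicate 3. Cell cycle genes numbered 3 of 113 (2.65%). CDKE;1 had 2.45 in replicate 1 and 2.33 in replicate 3, CDKC;1 had 2.36 and 2.31, and CDC20.2, an activator of the anaphase-promoting complex, had 1.92 and 2.24, all in those libraries. CDKE;1 and CDKC;1 are cyclin-dependent kinases known mainly for transcription.

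Photosynthesis genes numbered 3 of 87 (3.45%). STN8, a thylakoid kinase, had folds of 2.71 in replicate 2 and 2.44 in replicate 3. CAB2 and CAB1, neighbouring genes of nearly identical light-harvesting proteins, had 2.13 and 2.19, and 1.98 and 1.73, in replicates 1 and 3, and these are uncertain for the same reason. Chaperone genes numbered 3 of 95 (3.16%). CLPB2 had 2.70 in replicate 2 and 2.74 in replicate 3, HSC70-1 had 2.40 in replicate 1 and 2.57 in replicate 3, and the protease ftsh3 had 2.42 in replicate 2 and 2.43 in replicate 3. Central metabolism had 1 of 148 genes (0.676%), the aldolase FBA5, with 2.48 in replicate 1 and 2.51 in replicate 3. Lipid and wax had 1 of 107 (0.935%), ELO3, which the table names as an Elongator subunit and not a lipid enzyme, with 2.35 in replicate 1 and 2.13 in replicate 2. Ribosomal proteins had 0 of 53.

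In 13 genes 2 separate regions were found. Besides TIC, CYP78A10 and SAP130a, these were AT1G07940, AT1G31670, AT2G45220, AT2G45540, AT3G42060, AT3G54580, AT5G07080, AT5G62560 and the overlapping AT3G22125 and AT3G22142, which shared both regions. AT2G45220 encodes the pectin methylesterase PME17, and its regions had 1.91 and 2.17 in replicate 1 and 1.83 and 2.28 in replicate 3. At AT2G45540 the span was 15418 bp long, and the regions had 1.85 and 2.48 in replicate 2 and 2.00 and 2.20 in replicate 3. In the shortest of these genes, CYP78A10, the span was 1702 bp. The highest mean fold among the 2-region genes was 2.93, at SAP130a.

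Neighbouring regions were a minority. There were 38 pairs of adjacent regions with a gap of at most 10 kb, 12 of them in the same gene and 26 in different genes. CARB, CAB2 and CAB1 formed a run on chromosome 1, with gaps of 6024 and 2585 bp, and all 3 had their peaks in replicates 1 and 3. AT1G62520 and the glucosinolate oxygenases FMO GS-OX2 and FMO GS-OX3 formed another, with gaps of 6568 and 7722 bp. AT3G54580 and HRGP1, a hydroxyproline-rich glycoprotein, lay 3065 bp apart, and AT5G06630 and EXT10 lay 2558 bp apart. These neighbours, named after their values were seen, are in part copies of each other.

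Of the 481 genes, 11 (2.29%) also held the summit of a GRF3-GFP region found in all 3 libraries, beside 0.816% of all protein-coding genes. At GN that region had folds of 6.33, 6.38 and 6.97 in replicates 1, 2 and 3, a mean of 6.56 ± 0.36 (SD, n = 3). At AT4G24610 it had 10.4, 10.3 and 11.6, beside 2.22 and 2.02 in replicates 1 and 3 at the weaker region. At UGT73C2, it had 30.0, 14.8 and 22.6, beside 2.41 and 2.54 in replicates 2 and 3. In these 3 genes, named after their values were seen, every value of the 3-library region was more than the 2-library region's. The order was the opposite in mean fold at AT3G22125 and AT3G22142, which share a 3-library region of 1.80 ± 0.15 (SD, n = 3) beside 2.06 and 2.07, and at LSH9, with 2.01 ± 0.04 (SD, n = 3) beside 2.25. AT5G07570 and AT1G67870 had the same order as LSH9. A GRF1-GFP region found in 2 or 3 libraries lay elsewhere in 4 of the 481 genes (0.832%), beside 1.07% of all protein-coding genes. These were HSI2, UGT73C2, BRM and AT3G28830. At UGT73C2 the GRF1-GFP region had folds of 45.1, 49.7 and 69.4 in the 3 GRF1-GFP libraries, and at AT3G28830 20.0, 18.5 and 30.1.

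The rule removed only GRF1-GFP regions shared by libraries, so a peak of 1 GRF1-GFP library could remain. This was so in 52 of the 481 regions (10.8%, exact 95% binomial interval 8.18 to 13.9, which covers counting error only). Of all 2-library GRF3-GFP regions that overlap no shared GRF1-GFP region, the 481 included, the share was 15.8% (176 of 1117). Among GRF3-only gene-body regions in all 3 libraries it was 7.41% (12 of 162, exact 95% binomial interval 3.89 to 12.6), an interval that holds 10.8%. Among those in 1 library it was lower, at 3.80% (109 of 2870, interval 3.13 to 4.56). The 1-library regions were also narrower, with a median width of 285 bp beside 413 bp. A narrower region has less room for an overlap, and the part of width was not tested. Replicates 1, 2 and 3 of GRF1-GFP gave 9, 24 and 19 of the 52. The summits of the 2 factors lay within 100 bp of each other for 29 of 53 such peaks. AT4G05097 had the highest GRF1-GFP fold, 6.52 in replicate 3, with its summit 737 bp from that of GRF3-GFP, which had 2.41 in replicate 2 and 2.84 in replicate 3. KPL had a GRF1-GFP fold of 4.42 and HB-3 one of 3.38, both in replicate 3, at distances of 80.5 and 2 bp. At HB-3, then, 1 GRF1-GFP library had a peak of similar height at almost the same place. At KPL the GRF1-GFP fold was above both GRF3-GFP folds, 3.86 and 2.95. Its distance was near the median of 91.5 bp over the 53 peaks. Without regions that touch a peak of any GRF1-GFP library, 429 of the 481 are left.

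At the limits of the rule, 5PTASE13 and AT5G22180 were the regions closest to a shared GRF1-GFP region, with gaps of 72 and 84 bp, while regions at AT4G18150 and AT2G22420 were left out with overlaps of 200 and 225 bp. The excluded region at AT2G22420 had folds of 5.81 in replicate 1 and 4.27 in replicate 3. Summits at AT1G36230 and AT1G41820 lay 38.5 and 79 bp inside a gene, and those near AT4G16215 and AT5G35069 lay 16.5 and 25.5 bp outside one. The peaks of the 2 libraries overlapped by 13 bp at NEK6 and at G2484-1. Peaks at YSL6 and AT1G79570 missed each other by 7 and 17 bp and so did not form a region. Folds on the inner side of these limits, from 1.99 to 3.32, and on the outer side, from 1.99 to 5.81, overlapped.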

How the data were processed

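Per the submitters' processing notes, the tools named were FastQC, Trimmomatic, Bowtie2 and MACS2 with the TAIR10 build. No source used here gives their versions and thresholds or the control behind each peak. The 6 lists used, 1 per library, are the authors' deposited narrowPeak tables, with the fold enrichment (a linear ratio over background), the −log10 p and −log10 q values, an integer score and the summit offset. The lowest deposited −log10 q was 1.30. Python 3.11.15 with numpy 2.4.6, pandas 2.3.3 and scipy 1.17.1 merged peaks of a factor that overlapped by at least 1 bp. A region's summit was the median of its libraries' summits, each from the widest peak. Coordinates are 1-based on TAIR10. Gene names and spans came from a RefSeq table of the TAIR10.1 assembly, with 27444 protein-coding genes and 4843 pseudogenes. It was used to find which span held a summit.

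The members and the gene lists were chosen with earlier results of these data known, and list genes were matched by symbol. Named genes were the 12 regions of highest mean fold, the 3 highest of each pair of libraries and of each list, genes with 2 regions, regions at the limits of the rule and the 3 highest GRF1-GFP peaks; other genes and families, among them PHT1, CHX and EXO70, were chosen after their values were seen. Position and span length were tested by exact sign flips over 3 libraries. The code that called the regions was first tested on simulated peaks, and the sign-flip function on fixed values. The code that measured position and span length was not tested in this way. Alternatives covered peak significance, fold, overlap, list length, GRF1-GFP overlap, summit choice, the summary used and each library left out. Depth is unknown, so no value has a counting error of reads.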

Additional observations from a re-analysis of the deposited data

How the results depend on the processing

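Peaks with a −log10 q of at least 5 gave 78 regions, which overlapped 60 of the 481, in 77 genes and 13 list genes, with a median mean fold of 2.64, 50% from replicates 2 and 3 and 35% of summits in the outer 25% on either side of the span. GRF3-GFP lists of equal length gave 205 regions in 205 genes and 43 list genes, with 26.8% from replicates 2 and 3, and overlapped 158 of the 481. A fold of at least 2 in each peak raised the median mean fold to 2.45 by construction.

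With each GRF3-GFP or GRF1-GFP library left out in turn, the number of regions ran from 214 to 494, the genes from 212 to 494, the list genes from 45 to 114, the median mean fold from 2.34 to 2.54 and the median span from 2386 to 2566 bp. The share of summits in that outer part ran from 39.4% to 57.5% and so lay on both sides of the 50% of an even spread. The share with a peak in 1 GRF1-GFP library ran from 6.07% to 10.6%. Leaving out a GRF3-GFP library also takes in the regions otherwise found in all 3, and leaving out replicate 3 gave the lowest counts. The difference in position ran from 12.1 to 12.8 percentage points and that in span length from −212 to −126 bp, with no test past a threshold, since 3 libraries cannot give p under 0.25. Without 5 genes that matched a list by a shared symbol, an alternative chosen after seeing the data, 106 list genes held a region. No paired analysis was possible because no test compares groups of samples that share replicate numbers; the comparisons above are already made within each library. The lists hold no read counts, so the depth that limits a missing peak is unknown.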
